A study of Mus musculus with 847 samples.

Results

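The 10 genes described here mark T cells and the killing granules that cytotoxic T cells share with natural killer cells. They are the CD3 chain genes Cd3e, Cd3d and Cd3g, the CD8 chain genes Cd8a and Cd8b1, the T cell receptor constant region genes Trbc2 and Trac, and the effector genes Ccl5, Nkg7 and Gzmb. They were chosen by name from the 21076 genes of a count table that holds bulk RNA-seq of 15 brain regions, 1 library per mouse and region. The table has 847 libraries from 59 C57BL/6JN mice, none of which is labelled as treated, and each region has 51 to 59 libraries. There are 7 ages: mice of both sexes were 3, 12, 15, 18 or 21 months old, and males alone were 26 or 28 months old. Each age with females has 5 of them, and the males number 5 per age, except 6 at 21 months and 3 at 28 months. Mice are the replicates throughout.

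The CD3 chains carry the signal of the T cell receptor into the cell, and the alpha and beta chains of the receptor bind antigen. CD8 is the coreceptor of cytotoxic T cells. Ccl5 is a chemokine that effector T cells store and release, Nkg7 is a membrane protein of cytotoxic granules, and Gzmb is the protease granzyme B that kills the target cell. Few T cells are found in the young mouse brain, where they lie mainly in the meninges, the choroid plexus and around vessels.

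The shallowest library had 481444 reads, the median library 6716030 and the deepest 26756700; 10 were under 1e+06 reads. Depth differed little by age, the lowest median being 6327610 reads (18 months) and the highest 7490220 (28 months). The 10 genes took 39079 reads in all 847 libraries, of which 70.3% were from Trbc2 and Trac. Because single libraries gave so few reads, counts were also summed per mouse over the 14 regions other than the choroid plexus. Such a mouse sum held a median of 98624600 reads (50369200 to 160832000), and 37 of the 59 mice had all 14 regions.

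The positions of the genes in the mouse genome are given in build GRCm38 with the GENCODE M21 annotation. Cd3e (ENSMUSG00000032093, chr9:44998740-45009627, minus strand), Cd3d (ENSMUSG00000032094, chr9:44981786-44987339, plus) and Cd3g (ENSMUSG00000002033, chr9:44969572-44980431, minus) form a cluster in which the starts of Cd3g and Cd3d are 1354 bases apart. Cd8a (ENSMUSG00000053977, chr6:71373427-71379173, plus) and Cd8b1 (ENSMUSG00000053044, chr6:71322788-71337494, plus) also neighbour each other. Trbc2 (ENSMUSG00000076498, chr6:41546730-41548352, plus) and Trac (ENSMUSG00000076928, chr14:54220521-54224206, plus) are receptor constant region genes. The effector genes are Ccl5 (ENSMUSG00000035042, chr11:83525778-83530518, minus), Nkg7 (ENSMUSG00000004612, chr7:43437073-43438249, plus) and Gzmb (ENSMUSG00000015437, chr14:56258838-56262260, minus). Cd3e shares 135 exon bases, 3.3% of its exons, with the antisense gene Gm48719, and the libraries are labelled unstranded, so reads of the pair cannot be separated there. The constant regions of Trbc1 and Trbc2 are 95.3% identical, and 44.0% of the 50-base words of Trbc2 also occur in Trbc1, so counts of Trbc2 are uncertain to that extent.

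The sequences upstream of the 3 CD3 genes, Cd8a and Nkg7 are shown because these 5 genes rose together with age in the mouse sums described below and have a promoter in the RefSeq table for GRCm38.p6. That table held 6 of the 10 genes; the sixth is Gzmb. They span chr9:45009664-45009861 on the minus strand for Cd3e, chr9:44981536-44981768 on the plus strand for Cd3d, chr9:44980432-44980681 on the minus strand for Cd3g, chr6:71373177-71373426 on the plus strand for Cd8a and chr7:43436888-43437072 on the plus strand for Nkg7. Capitals mark matches, on either strand, to 6 motifs: TGTGGT for RUNX factors, AGGAAG for ETS factors, AGATAA for the GATA family, CTTTGA for TCF and LEF, CAGNTG for the E-box and TATAAA for the TATA box.
Cd3e: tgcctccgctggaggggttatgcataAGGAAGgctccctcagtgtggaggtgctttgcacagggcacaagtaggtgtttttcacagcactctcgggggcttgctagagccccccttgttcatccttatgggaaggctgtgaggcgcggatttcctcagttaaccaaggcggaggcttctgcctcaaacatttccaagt
Cd3d: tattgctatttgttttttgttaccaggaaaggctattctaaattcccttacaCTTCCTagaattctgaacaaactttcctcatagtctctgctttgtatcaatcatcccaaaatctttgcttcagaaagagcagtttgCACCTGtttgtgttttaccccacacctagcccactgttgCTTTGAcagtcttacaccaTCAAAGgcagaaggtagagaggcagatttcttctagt
Cd3g: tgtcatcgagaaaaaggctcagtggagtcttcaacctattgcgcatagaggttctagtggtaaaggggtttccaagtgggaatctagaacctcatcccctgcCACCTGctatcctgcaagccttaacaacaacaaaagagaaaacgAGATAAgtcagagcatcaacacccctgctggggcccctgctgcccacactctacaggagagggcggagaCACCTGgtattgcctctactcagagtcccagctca
Cd8a: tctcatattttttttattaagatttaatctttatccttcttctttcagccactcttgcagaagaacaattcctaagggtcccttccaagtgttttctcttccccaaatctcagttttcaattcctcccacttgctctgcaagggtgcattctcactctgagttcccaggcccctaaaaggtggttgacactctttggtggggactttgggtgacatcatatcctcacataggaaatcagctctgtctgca
Nkg7: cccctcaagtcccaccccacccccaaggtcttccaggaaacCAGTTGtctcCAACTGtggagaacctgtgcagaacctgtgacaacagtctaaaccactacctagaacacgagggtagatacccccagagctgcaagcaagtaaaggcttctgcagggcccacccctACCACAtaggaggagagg
The Cd3e window held 1 ETS match, which 23.7% of 32851 promoters cut to the same length also held. Cd3d held 1 ETS match (27.5% of promoters), 2 TCF and LEF matches (13.2%) and 1 E-box (42.5%). Cd3g held 1 GATA match (10.0%) and 2 E-boxes (44.8%), and Nkg7 held 1 RUNX match (10.7%) and 2 E-boxes (36.0%). The Cd8a window held 0 matches to the 6 motifs. No motif was matched in all 5 windows, and none of them held a TATA box match. The Cd3e, Cd3d and Nkg7 windows ended 53, 18 and 66 bases before the start they are counted from. Matches nearer to the start, of the TATA box or another motif, could not be found there.

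Trbc2 and Trac were the most abundant of the 10 genes, and the level of each differed widely between brain regions. Levels are given as reads per 1e+06 reads of the library (CPM), and between genes only as CPM per kilobase of exon. Over all libraries the mean level per kilobase was 4.00 for Trbc2, 1.56 for Trac, 0.731 for Ccl5, 0.281 for Nkg7, 0.0993 for Cd3e, 0.0539 for Cd8b1, 0.0312 for Cd3g, 0.0247 for Cd3d, 0.0219 for Cd8a and 0.0149 for Gzmb. In the motor cortex Trbc2 reached 24.1 CPM per kilobase beside 0.0073 for Cd3g, a ratio of 3317 between a receptor chain gene and a gene of the complex that carries it. These levels go against T cells as the label for Trbc2. Trac, at 1.56 per kilobase over all libraries beside 0.0312 for Cd3g, shared some of its highest regions with the other genes. The 8 genes other than Trbc2 and Trac are therefore summed on their own below. No p is given for any such sum, because the genes were not chosen independently of these data.

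Trbc2 was highest in the motor cortex, the corpus callosum and the visual cortex. It had 16.7 ± 3.10 CPM in the motor cortex (SD, n = 59; 10.4 to 25.0), 10.2 ± 5.89 in the corpus callosum (n = 57; 2.28 to 28.9) and 7.20 ± 3.70 in the visual cortex (n = 56; 2.06 to 16.4). The corpus callosum overlapped both cortical regions in range. Thalamus (1.85 CPM) and hypothalamus (1.73) followed, and the other regions had at most 0.591 CPM, among them the entorhinal cortex at 0.201 CPM. Against the rest of the same mouse's brain, in a paired edgeR fit with the mouse as block, Trbc2 was higher by 3.46 on the log2 scale in the motor cortex (SE 0.08), by 2.11 in the corpus callosum and by 1.55 in the visual cortex, and its cerebellum difference was -5.71.

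Trac had another order of regions. Its mean level was 4.34 ± 1.40 CPM in the hypothalamus (SD, n = 55), 3.61 in the pons, 2.95 in the medulla, 2.31 in the cerebellum, 2.26 in the thalamus and 2.11 in the choroid plexus, and at most 0.839 elsewhere. In the motor cortex, where Trbc2 was highest, Trac had 0.210 CPM. Against the rest of the same brain Trac was higher by 1.52 in the hypothalamus, 1.5 in the pons and 1.11 in the medulla, on the log2 scale. The 2 genes code for the chains that pair in most T cell receptors.

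**Figure D1:**
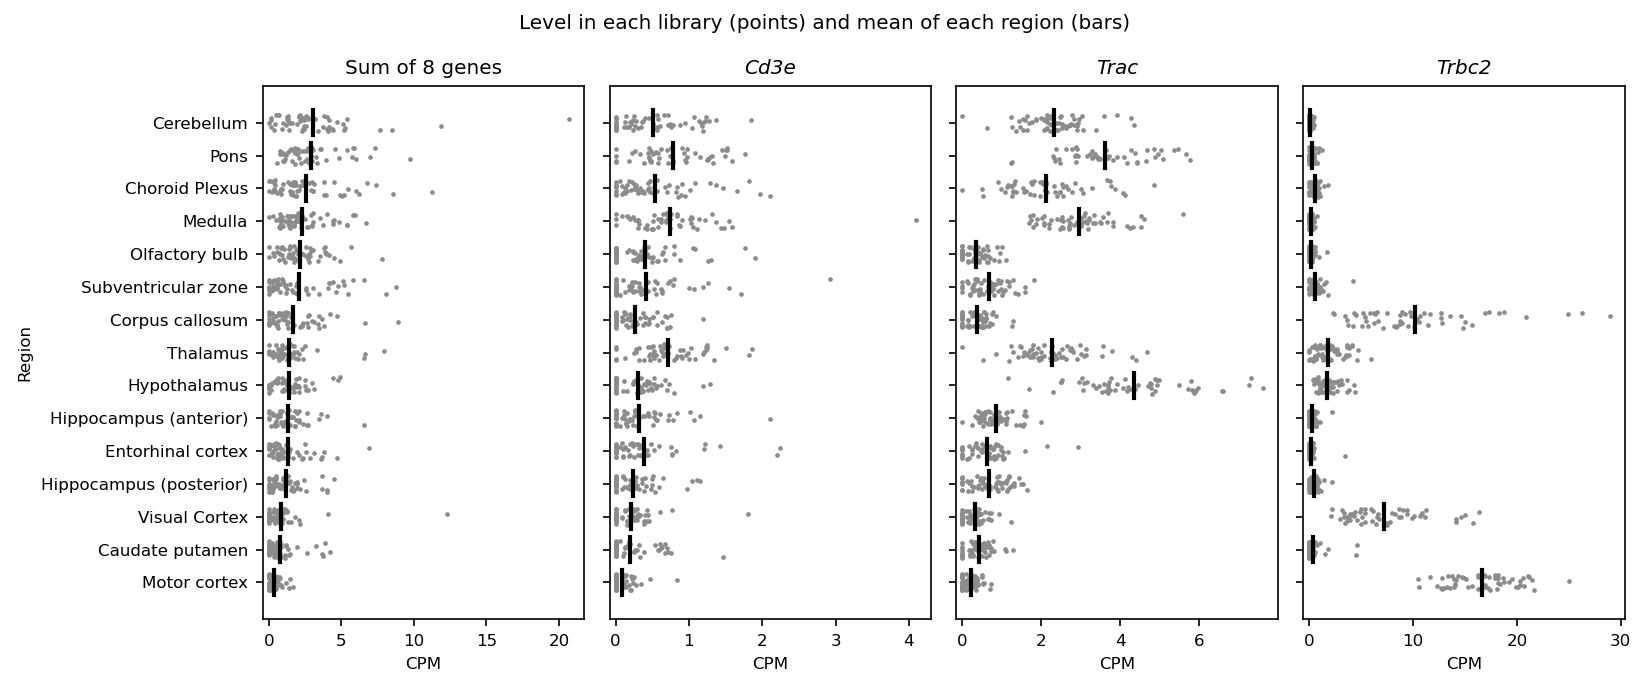
Level in CPM of the 8 genes other than Trbc2 and Trac summed, and of Cd3e, Trac and Trbc2, by brain region, 1 point per library with the mean marked. Trbc2 is highest in the motor cortex (mean 16.7 CPM) and Trac in the hypothalamus (4.34), while the sum of 8 is highest in the cerebellum (3.06) and the pons (2.94).

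Over all ages together, the sum of the other 8 genes had its highest means in hindbrain and choroid plexus and its lowest in the motor cortex. It was 3.06 ± 3.2 CPM in the cerebellum (SD, n = 58), 2.94 ± 1.92 in the pons (n = 51), 2.57 ± 2.31 in the choroid plexus (n = 57), 2.29 ± 1.57 in the medulla (n = 58) and 2.19 ± 1.48 in the olfactory bulb (n = 58). It was 0.363 ± 0.379 CPM in the motor cortex (n = 59). The 5 highest regions differed by less than their SD. The order changed with age: at 3 months the olfactory bulb had the highest mean (1.94 CPM), above the cerebellum (0.593) and the choroid plexus (0.635), and at 28 months the corpus callosum (5.82) and the subventricular zone (5.81) were above the choroid plexus (4.12). Cd3e alone had its highest means in the pons (0.789 CPM), medulla (0.743) and thalamus (0.711), and per kilobase the ratio of Cd3e to Cd3g was 10.3 in the thalamus and 1.69 in the corpus callosum, although both chains belong to 1 complex.

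Of the 150 pairs of gene and region, 35 were higher than in the rest of the same brain and 54 were lower by edgeR, adjusted over all genes of a region. Over all genes and regions 32.5% of tests were higher and 42% lower, so neither share of the 10 genes stands far from the background. The counts by region that follow have no share of all genes of the same region beside them and are descriptions only. In the pons 8 genes were higher. In the motor cortex 9 were lower and Trbc2 was higher. In the choroid plexus all but Trbc2 and Gzmb were higher, 8 genes, and Trbc2 differed by -2.27. Without mouse 39, an 18-month female whose choroid plexus had the highest summed level, the plexus count was 6, because Cd3d (adjusted p = 0.0503) and Cd3e (0.0530) no longer passed.

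With age 7 of the 10 genes rose in the mouse sums: Ccl5, Nkg7, Cd3e, Cd3d, Cd3g, Cd8a and Cd8b1. All are on the list of 8, and granzyme B, Trbc2 and Trac did not pass the test. The test was edgeR's quasi-likelihood fit of age in months with sex as a covariate and Benjamini-Hochberg adjustment over all 20162 genes tested, of which 10.6% rose and 10.5% fell. The median slope of the 10 genes was 0.094 log2 units per month, beside -0.0004 over all genes tested. In bulk tissue more T cells and more RNA of these genes per cell cannot be told apart. The 7 genes passed under every alternative tried on the mouse sums, with Cd3d reaching the highest adjusted p, 0.0107.

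Ccl5 is the gene with the smallest p of the 10. At 3 months its mouse sums ran from 0.101 to 0.809 CPM with a median of 0.25 (n = 10), and at 28 months the 3 males had 2.00, 1.58 and 1.14 CPM. The 3 oldest mice lay above every 3-month mouse. The slope was 0.104 per month (SE 0.010, adjusted p = 1.43e-12), which is 6.03-fold over the 25 months between the youngest and oldest mice.

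Nkg7 had the steepest slope of the 10 genes in the mouse sums. It ran from 0.0231 to 0.121 CPM at 3 months with a median of 0.0556, and the 28-month mice had 0.876, 0.501 and 0.483 CPM. All 11 mice of 21 months and all 5 of 26 months also lay above every 3-month mouse. The slope was 0.126 per month (SE 0.013, adjusted p = 1.92e-11), or 8.88-fold over 25 months.

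The CD3 chains rose together, Cd3e from a higher base. Cd3e, the epsilon chain, ran from 0.167 to 0.382 CPM at 3 months (median 0.280) and was 0.654, 0.668 and 0.791 at 28 months, and its slope of 0.049 (adjusted p = 6.45e-06) gives 2.36-fold. Cd3g, the gamma chain, ran from 0 to 0.0984 CPM (median 0.0384) and was 0.277, 0.232 and 0.205 at 28 months, with a slope of 0.091 (adjusted p = 7.46e-07, 4.82-fold). Cd3d, the delta chain, ran from 0 to 0.0574 CPM (median 0.0112) and was 0.101, 0.0835 and 0.0513 at 28 months, with a slope of 0.116 (adjusted p = 2.26e-05, 7.48-fold). The oldest mice were apart from the youngest for Cd3e and Cd3g, while for Cd3d 1 oldest mouse lay within the 3-month range.

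Both CD8 chains rose. Cd8a, the alpha chain, ran from 0 to 0.0706 CPM at 3 months (median 0.0142) and was 0.111, 0.325 and 0.0411 CPM at 28 months, with a slope of 0.102 (adjusted p = 3.72e-07, 5.81-fold). Cd8b1, the beta chain, ran from 0 to 0.0492 CPM (median 0.0288) and was 0.221, 0.139 and 0.164, with a slope of 0.097 (adjusted p = 3.69e-07, 5.36-fold). Every 28-month mouse exceeded the 3-month mice for Cd8b1, and 2 of the 3 did for Cd8a.

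Both receptor constant genes and granzyme B did not pass. Trbc2 ran from 1.89 to 5.25 CPM at 3 months (median 3.05) and was 3.60, 3.71 and 3.12 CPM at 28 months, with a slope of 0.008 (adjusted p = 0.512). Trac ran from 1.09 to 2.04 CPM (median 1.45) and was 2.00, 1.90 and 0.811 CPM, with a slope of 0.001 (adjusted p = 0.944). The oldest mice lay within the range of the youngest for both genes, apart from 1 oldest mouse below it for Trac. Gzmb ran from 0 to 0.0433 CPM with a median of 0 and was 0.0461, 0.0557 and 0.0924 CPM at 28 months, with a slope of 0.031 (adjusted p = 0.47). Its 3 oldest mice were above all 3-month mice, while the 5 mice of 26 months, at 0 to 0.0316 CPM, were not.

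**Figure D2:**
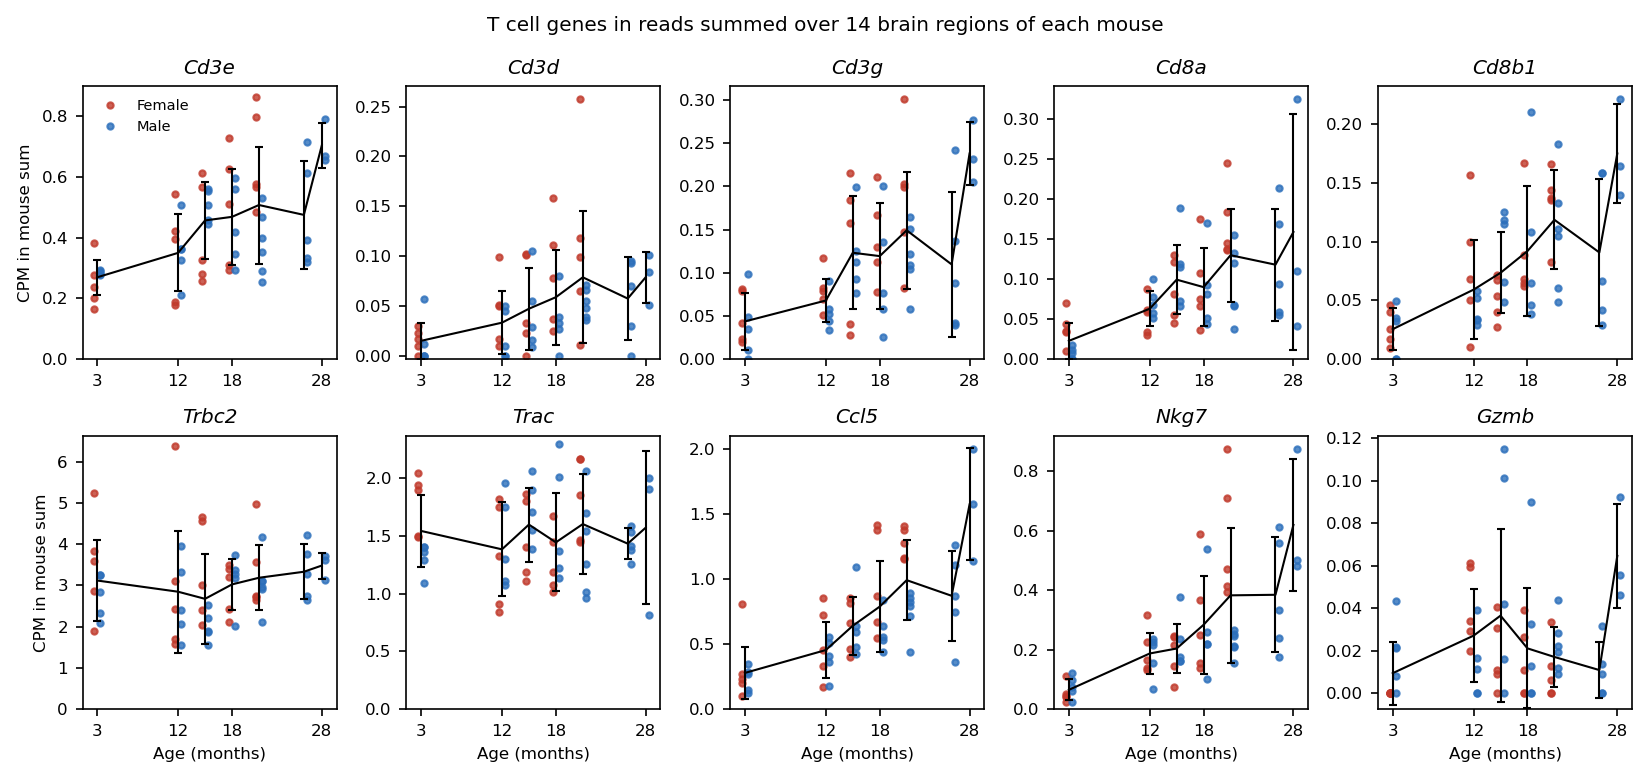
Counts per mouse summed over 14 regions, in CPM, against age in months for the 10 genes, 1 point per mouse (females red, males blue), with a line through the means and bars of 1 SD. Ccl5 goes from a median of 0.25 CPM at 3 months to 1.14 to 2.00 CPM at 28 months, whereas Trbc2 and Trac overlap between those ages.

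The sum of 8 showed when the difference appeared. At 3 months it ran from 0.513 to 1.34 CPM (median 0.645), and the 3 mice of 28 months had 4.29, 3.58 and 2.97 CPM. The means, in the order of the 7 ages, were 0.729, 1.24, 1.68, 1.92, 2.37, 2.12 and 3.61 CPM. They cover both sexes up to 21 months and males alone at 26 and 28 months. In males alone the means were 0.697, 1.14, 1.80, 1.65, 1.75, 2.12 and 3.61 CPM. Females had a mean of 3.12 CPM at 21 months, so the lower mean at 26 than at 21 months was not seen within males. The 5 males of 26 months had 1.26, 3.13, 1.65, 3.05 and 1.51 CPM, and the lowest of them lay below the highest 3-month mouse. The sum of all 10 genes moved less, from 5.39 to 8.66 CPM.

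Compared with 3 months in 1 fit with age as a factor, 0 of the 10 genes were higher at 12 months, where 1.3% of all genes were. At 15 months 6 were higher (2.21% of all genes), and at 18, 21 and 26 months 7 each (4.68%, 7.88% and 4.81% of all genes). At 28 months 8 were, beside 5.56%. All 6 contrasts share the 3-month mice. At 12 months edgeR gave an unadjusted p under 0.05 for Cd8b1, Cd8a, Nkg7 and Ccl5, with Nkg7 at an adjusted p of 0.0597. At 28 months the eighth gene was Gzmb, with an adjusted p of 0.0368. In the 37 mice with all 14 regions, of which 1 is 26 months old, the counts were 2 at 15, 4 at 18 and 0 at 26 months, and in males alone they were 2, 3, 4 and 4 at 15, 18, 21 and 26 months.

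The share of libraries with reads was compared at 1 depth. Were each library cut to 2e+06 reads, Ccl5 would be seen in 29.4% of libraries at 3 months and 82.6% at 28 months, Nkg7 in 10.1% and 55.8%, and Cd3e in 33.5% and 64.7%. Cd3g would go from 7.67% to 31.2%, Cd8b1 from 5.00% to 25.8%, Cd8a from 3.52% to 22.3%, Cd3d from 2.81% to 13.2% and Gzmb from 1.30% to 10.9%. For Trac (71.5% and 80.6%) and Trbc2 (54.1% and 58.6%) these shares lay closer together. The shares that follow are from the libraries at their full depth, not cut to 1 depth. Reads from all 3 CD3 chains were found together in 3 of 146 libraries at 3 months (2.05%) and 12 of 44 at 28 months (27.3%). Both CD8 chains were found in 9 (6.16%) and 16 (36.4%). The 44 libraries of 28 months came from 3 males.

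By region, 49 of the 150 pairs of gene and region rose with age and 0 fell; 137 pairs had the 10 reads needed for a test. Ccl5 rose in 12 of 15 regions, Nkg7 in 10, Cd3e, Cd3d, Cd3g and Cd8b1 in 5 each, Cd8a in 4, Trbc2 in 2, Trac in 1 and Gzmb in 0 of the 7 regions where it could be tested. Without Trbc2 and Trac, 46 of 120 pairs rose; 107 could be tested, of which 102 had a slope above 0. The share called over all genes differed between regions, so each count is read beside it. Of the 49 calls, 20 held under every setting that could test them and 29 were lost under at least 1.

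**Figure D3:**
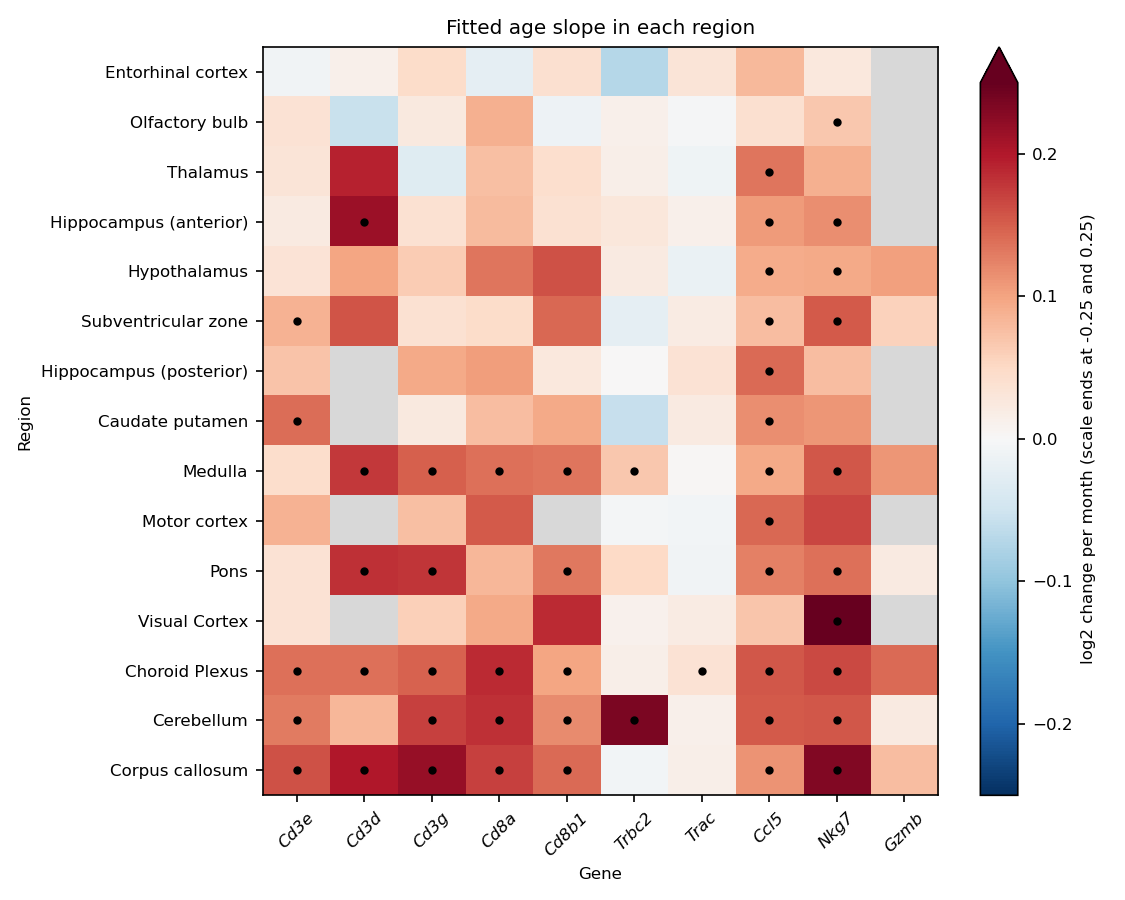
Slope with age in log2 units per month in each region (rows) for each of the 10 genes (columns), with a black dot where the adjusted p is under 0.05 and grey where a gene had too few reads to test. The dots cluster in Ccl5 and Nkg7 and in choroid plexus (8 genes), cerebellum, medulla and corpus callosum (7 each), and none lies in the entorhinal cortex.

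In the choroid plexus, the epithelial tissue that makes cerebrospinal fluid, 8 of the 10 genes rose, beside 10.2% of all genes. The slopes were 0.155 per month for Ccl5, 0.166 for Nkg7, 0.137 for Cd3e, 0.187 for Cd8a, 0.148 for Cd3g, 0.138 for Cd3d, 0.098 for Cd8b1 and 0.036 for Trac (adjusted p = 0.0126). Ccl5 ran from 0 to 1.07 CPM at 3 months with a median of 0.0598, and was 1.27, 2.34 and 1.80 CPM in the 28-month males. Cd3e ran from 0 to 0.448 CPM (median 0.119) and was 0, 1.02 and 1.08 CPM. For Ccl5 the 3 oldest plexuses lay above all young ones, and for Cd3e 1 of the oldest held no read. In males alone Cd8b1, Cd3g, Cd3d and Trac no longer passed, with adjusted p from 0.0700 to 0.364.

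In the cerebellum 7 genes rose, beside 9.86% of all genes: Ccl5 (slope 0.154, adjusted p = 3.42e-10), Cd8a (0.182), Cd3g (0.171), Nkg7 (0.156), Cd3e (0.130), Cd8b1 (0.118) and Trbc2 (0.235). Ccl5 ran from 0 to 0.838 CPM at 3 months (median 0.0516) and was 7.5, 1.86 and 1.86 CPM at 28 months. Cd3e ran from 0 to 1.24 CPM (median 0.151) and was 1.20, 1.14 and 1.04. The oldest cerebella were above all young ones for Ccl5, and for Cd3e they lay inside the young range, near its top. Cd8a and Trbc2 had 0 reads in all 10 cerebella of 3 months, which allows up to 0.0410 CPM over that group from counting alone. At 28 months Cd8a had 0.217, 1.34 and 0.0743 CPM, and Trbc2 had 0.326, 0.103 and 0.0743 CPM, in the region where Trbc2 was lowest.

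The corpus callosum, the main tract of white matter between the hemispheres, also had 7 genes that rose, beside 8.5% of all genes: Nkg7 (0.232), Cd3g (0.217), Cd3d (0.20), Cd8a (0.170), Cd3e (0.159), Cd8b1 (0.142) and Ccl5 (0.112). Cd3g ran from 0 to 0.182 CPM at 3 months with a median of 0 and was 0.673, 0.992 and 0.255 CPM at 28 months. Nkg7 ran from 0 to 0.0909 CPM with a median of 0 and was 0.943, 0.893 and 0.255 CPM. Both genes were higher in each oldest library than in any young one. From 3 to 21 months alone, Cd8b1, Cd8a, Cd3g, Cd3d and Ccl5 did not pass there, with adjusted p from 0.123 to 0.310, while Cd3e and Nkg7 did.

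In the medulla 7 genes rose, beside 6.33% of all genes, and in the pons 5, beside 4.63%. Nkg7, Cd3g, Cd3d, Cd8b1 and Ccl5 were called in both, and Cd8a and Trbc2 in the medulla. Cd3g had 0 reads in all 10 medulla and all 9 pons libraries of 3 months, which allows up to 0.0297 and 0.0296 CPM over those groups. At 28 months Cd3g had 0, 0.0881 and 0.387 CPM in the medulla and 0.821, 0.0967 and 1.15 CPM in the pons. Pons Ccl5 ran from 0 to 0.962 CPM at 3 months (median 0.224) and was 4.23, 0.871 and 2.88 CPM at 28 months, so 1 oldest pons lay in the young range. The Trbc2 call in the medulla was lost under 16 of 25 settings, among them the removal of any of mice 1, 2, 3, 17, 18, 37, 38 and 57. Without the highest medulla library (mouse 44) Cd3d had an adjusted p of 0.0504.

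The other regions of the forebrain had 0 to 3 calls each. Of all genes, 3.45% rose in the subventricular zone, a niche of neural stem cells, where Ccl5, Nkg7 and Cd3e rose. There Ccl5 was 1.12, 2.57 and 3.42 CPM at 28 months beside 0 to 3.58 CPM (median 0.306) at 3 months. Without the library with the highest summed level, Ccl5 (edgeR adjusted p = 0.0809) and Cd3e (0.128) did not pass. Ccl5 also did not without mouse 17 (0.0802). Without the 28-month mice none of these genes passed there (Nkg7 0.0820, Ccl5 0.164, Cd3e 0.258), nor from 3 to 21 months alone (0.202, 0.396 and 0.820). In the anterior hippocampus Ccl5, Nkg7 and Cd3d rose (5.46% of all genes), and in the caudate putamen Ccl5 and Cd3e rose (5.97%). Neither caudate call passed in edgeR without the 28-month mice (adjusted p = 0.0556 for Ccl5 and 0.115 for Cd3e). In the hypothalamus Ccl5 and Nkg7 rose (3.55%). Ccl5 was the only 1 of the 10 genes called in the posterior hippocampus (3.65%), motor cortex (7.42%) and thalamus (2.25%). Nkg7 was the only 1 called in the olfactory bulb (6.6%) and visual cortex (4.87%).

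Several of these single calls rest on few libraries. The Nkg7 calls in the olfactory bulb and hypothalamus were lost under 12 and 11 of 25 settings, the former also without mouse 16, 17, 18, 37 or 57 and the latter without mouse 3, 17, 40 or 57. The Cd3e call in the caudate putamen was lost without its highest library (adjusted p = 0.0652). In the motor cortex Nkg7 had 0 reads in all 10 libraries of 3 months and in all 3 of 28 months. In the entorhinal cortex 0 of the 10 genes were called by edgeR, and only 0.395% of all genes rose there. Its Ccl5 level was 0 to 0.282 CPM at 3 months (median 0) and 0.167, 0.769 and 0.807 CPM at 28 months.

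Few regions differed from the rest of the brain in the slope itself. In the paired fit, the age slope of 3 of the 150 pairs differed from the rest, while 0.473% of all tests were steeper and 0.546% less steep. Cd3e was steeper in the cerebellum by 0.061 per month (adjusted p = 0.0430) and in the corpus callosum by 0.105 (0.0192), and Ccl5 was less steep in the olfactory bulb by -0.072 (0.00344). Olfactory bulb Ccl5 was already 0.953 CPM on average at 3 months (0 to 4.04, median 0.721) and 1.08 CPM at 28 months. Without the mouse as block none of the 3 passed, with adjusted p of 0.170, 0.0979 and 0.173.

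Females had more Ccl5, Cd3e and Cd8a in the choroid plexus than males. Over the ages with both sexes, 3 to 21 months, the male minus female level was -1.48 on the log2 scale for Ccl5 (SE 0.26, adjusted p = 2.75e-04), -1.31 for Cd3e (SE 0.24, 3.41e-04) and -2.11 for Cd8a (SE 0.49, 0.0123), while 1.16% of all genes differed in either direction. Ccl5 ran from 0 to 4.64 CPM in 24 female plexuses (median 1.13) and from 0 to 1.80 CPM in 25 male ones (median 0.432). Cd3e ran from 0 to 2.11 CPM in females (median 0.490) and from 0 to 0.941 in males (median 0.223). The sexes overlapped for both genes. The mean sum of 8 was 3.29 ± 2.75 CPM in females and 1.40 ± 1.13 in males (SD), and it was higher in females at each of the 5 ages.

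The other sex comparisons gave 0 calls among the 10 genes. In mouse sums 4.07% of all genes differed in level; Ccl5 came nearest, at -0.47 (adjusted p = 0.0506), and edgeR's unadjusted p was under 0.05 for Nkg7, Cd3g, Cd3d, Ccl5 and Gzmb. Of these, Gzmb alone was higher in males. The age slope differed between the sexes for 1.46% of all genes in mouse sums, with an unadjusted p under 0.05 for Nkg7 and Cd3e. In the plexus 0.0117% of genes differed in slope, with Trbc2 at an unadjusted p of 0.0381.

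**Figure D4:**
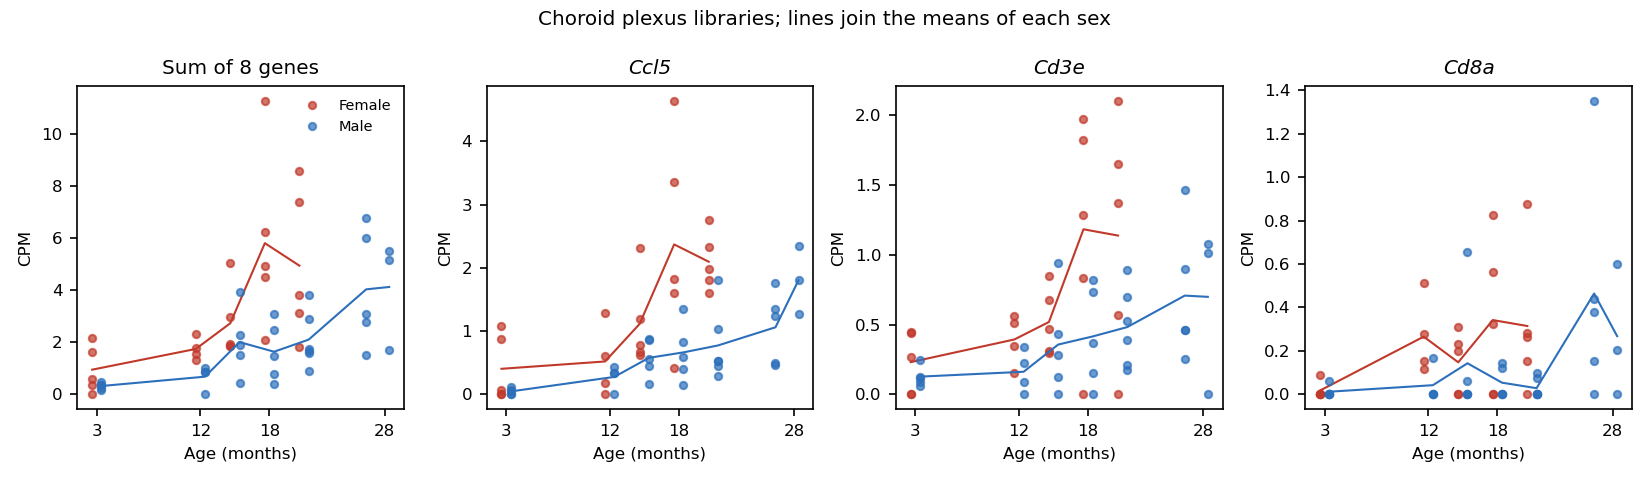
Choroid plexus levels in CPM of the sum of 8, Ccl5, Cd3e and Cd8a by age in months, 1 point per mouse, with a line through the means of each sex. Female means of the sum lie above male means at all 5 shared ages, and the ranges overlap.

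Genes that work with the T cell receptor rose in part. Of the 20 listed genes of receptor signalling, 6 rose in the mouse sums and 1 fell, where 10.6% of all genes rose and 10.5% fell. Those that rose include Cd2, an adhesion receptor (slope 0.060), the kinase Lck, the adaptor Lat, Ubash3a and Trbc1 (0.133, adjusted p = 1.20e-06), and Sh2d1a fell (-0.010). Trbc1, the near copy of Trbc2, thus rose where Trbc2 did not pass. Of 14 cytotoxic effector genes, which include perforin and other granzymes, 0 were called by edgeR in the mouse sums. In the choroid plexus 4 of 12 tested effectors rose (Klrk1, Tbx21, Il2rb and Ctsw), where 10.2% of all genes rose. Cd4, the helper coreceptor, stood at 120 CPM in the caudate putamen, 68.4 in the corpus callosum and 28.1 in the subventricular zone and at most 1.24 elsewhere.

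Checkpoint and trafficking genes moved too, in mouse sums where 10.6% of all genes rose. Pdcd1, the receptor PD-1 of stimulated T cells, had a slope of 0.187 (adjusted p = 7.81e-22), and Lag3 and Tigit also rose, 3 of 5 checkpoint genes. Among 12 genes of trafficking and residence 6 rose: Cd69 and Cxcr6, which mark cells that stay in tissue, Itgb7, Ltb, Ms4a4b and Cxcr3. Of 7 ligands that draw T cells, Cxcl10 (0.087), Cxcl16 (0.040), Ccl3 (0.138) and Ccl4 (0.155) rose, and in the choroid plexus, against the same 10.2%, 5 of 7 did. Microglia express some of these ligands and Lag3 as well.

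Markers of other cells were measured beside the 10 genes, and their part in the rise was not tested. In the mouse sums 10.6% of all genes rose and 10.5% fell. The lists are short, so a count of 1 or 2 genes is not read as a result about a cell type. Of 5 natural killer genes 2 rose (Klrb1c and Klra4), and their sum was 0.173 ± 0.082 CPM at 3 months (n = 10; 0.0698 to 0.312) and 0.232 ± 0.060 at 28 (n = 3; 0.176 to 0.295). Ncr1, which defines natural killer cells, had a mean of 0.0106 CPM and reads in 58 libraries. Of 5 gamma delta T cell genes 1 rose, Tcrg-C2. Granulocyte genes had 2 of 8 called, Camp and Mpo, and a sum of 1.45 to 108.1 CPM at 3 months and 20.4 to 61.1 at 28 months. B and plasma cell genes had 2 of 6 called (Jchain and Mzb1; 0.832 to 3.51 and 1.53 to 2.74 CPM). Of 6 microglia genes 5 rose, with sums of 311.6 to 353.1 and 415.1 to 460.3 CPM. Of 6 genes of monocytes and dendritic cells 3 rose (Plac8, Itgax and Ly6c2), with sums of 13.0 to 20.9 CPM at 3 months and 18.0 to 18.7 at 28 months. Of 5 border macrophage genes Ms4a7 rose and Lyve1 fell (7.15 to 11.5 and 8.66 to 10.8 CPM), and of 5 meningeal and stromal genes Col3a1 fell (49.5 to 102.6 and 50.2 to 73.7 CPM). Blood, endothelium, choroid plexus and neuron lists had 0 genes called by edgeR in the mouse sums.

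The 2 libraries with the highest sum of 8 carried blood and granulocyte genes. The cerebellum of mouse 40, a female of 21 months, had a sum of 8 of 20.7 CPM, beside 11.9 in the next library, with 54 reads of Ccl5 and 53 of Nkg7. In it the 8 granulocyte genes summed to 2842 CPM (region median 13.6), the blood genes to 2614 (32.8), B and plasma genes to 77.2 (0.713), border macrophage genes to 71.8 (4.64) and meningeal genes to 564.0 (44.5), each the highest of 58 cerebella. The visual cortex of mouse 48, a female of 21 months, had a sum of 8 of 12.3 CPM beside 4.05 in the next, with granulocyte genes at 1658 CPM (median 9.97). Without these libraries all 7 cerebellar calls remained, Nkg7 with a slope of 0.106 (adjusted p = 3.82e-04), and Nkg7 in the visual cortex had 0.241 (0.00355) beside 0.324 with all libraries. With the blood genes as a covariate Nkg7 in the visual cortex had 0.175 and did not pass (0.0701); it also missed under DESeq2 (0.0884), without 28 months (0.0553), from 3 to 21 months (0.102) and in mice 16 to 56 (0.0777).

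Elsewhere, high T cell sums and high granulocyte sums were found both together and apart, and a link between them was not tested. The choroid plexus of mouse 39 had a sum of 8 of 11.3 CPM with granulocyte genes at 1.46 CPM and B and plasma genes at 34.0 CPM, the highest of 57 plexuses. Its meningeal and stromal genes, at 216.5 CPM beside a region median of 150.2, were also the highest of the 57. The highest olfactory bulb was that of mouse 33, a male of 3 months, at 7.82 CPM. The olfactory bulb of mouse 20, a male of 21 months, had 297.5 CPM of granulocyte genes and 0 reads of the 8. The olfactory bulb of mouse 11, a male of 26 months, had 806.9 CPM and a sum of 8 of 4.89 CPM, and the visual cortex of mouse 59, a male of 28 months, had 472.0 and 4.05 CPM, both above the median of their region (1.85 and 0.573 CPM). The cerebellum of mouse 25, a male of 3 months, had 780.9 CPM and a sum of 1.26 CPM, below the region's median over all ages (2.40) and above the mean of its age (0.593). The cerebella of mice 52, 27 and 2 had 312.1, 272.2 and 287.3 CPM of granulocyte genes. Their sums of 8 were 8.47, 4.33 and 2.44 CPM. The olfactory bulbs of mice 46, 40 and 21 had 445.3, 325.6 and 473.0 CPM, with sums of 2.37, 3.91 and 0.763 CPM. Of these libraries only the bulb of mouse 21, a male of 3 months, lay below its region's median sum.

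**Figure D5:**
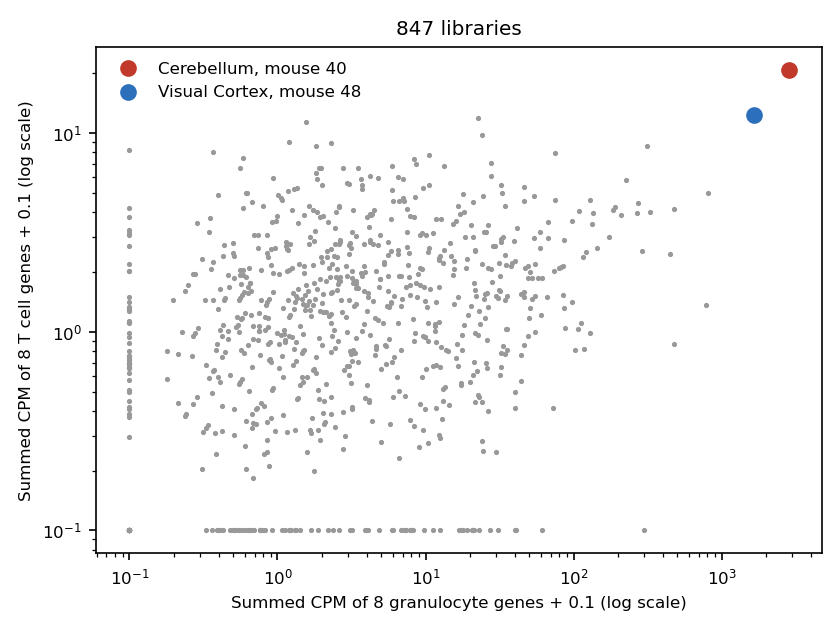
Sum of the 8 T cell genes against the sum of 8 granulocyte genes in each library, both in CPM plus 0.1 on log axes. The cerebellum of mouse 40 (20.7 and 2842 CPM) and the visual cortex of mouse 48 (12.3 and 1658 CPM) are marked at the upper right.

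Among all genes, those of MHC class I varied most like the 10 genes. The measure was Pearson's r of log2(CPM + 0.1), as deviations from the region mean, over 837 libraries with at least 1e+06 reads, and libraries of a mouse share that mouse's age. With the sum of 10 the closest were H2-K1 (r = 0.48), H2-D1 (0.47), B2m (0.46), Cst7 (0.44), Lilrb4a (0.43), C3 (0.42), Itgb2 (0.42), Unc93b1 (0.41), Cd52 (0.41) and Ms4a4b (0.41). H2-K1, H2-D1 and B2m encode the molecule that presents peptides to CD8 T cells. With the sum of 8, a choice made after seeing the values, r was 0.66 for H2-K1, 0.64 for H2-D1, 0.63 for B2m and 0.62 for Lyz2. For Trbc2, r was 0.34 with Doc2a, and no gene exceeded 0.25 with Trac. Pairs among the 8 genes had a median r of 0.31, while the median with the 8 was 0.16 for Trbc2 and 0.14 for Trac, values that low counts also limit.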

How the data were processed

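Gene counts, which the authors deposited as whole numbers of reads per gene and library, came from unstranded mRNA-seq of Smart-Seq2 cDNA, per the labels' protocols. Per the submitters' processing notes, Trim Galore 0.3.7, STAR 2.5.3a, DESeq2 and the build GRCm38 were used; their roles, the counting program and the annotation are not given in the sources used here. Every column matched 1 labelled library. The 10 genes, the 18 gene lists and the tests were chosen with earlier results of these data known.

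Counts were tested with edgeR 4.0.16 (R 4.3.3): quasi-likelihood fits, TMM scaling, genes with at least 10 reads in the fit, Benjamini-Hochberg adjustment over all genes and a threshold of 0.05, 2-sided. Age in months was fitted with sex as a covariate, by region and in counts summed per mouse over 14 regions. Regions came from the same mice, so a region and the rest were compared with the mouse as block; deviations from the group means correlated weakly between regions of a mouse (median r 0.090 over 105 region pairs). Genes named in the text are the 10, the listed genes and the 10 most alike; some are not reported here. Simulated counts were used to test the scripts. They were drawn independently for each gene, with the same spread for all genes and no deviation shared by the libraries of a mouse. The shares that follow hold for that setting and need not carry over to the real counts. Unchanged genes made up 5.66% of the calls by age in the choroid plexus and 4.76% in mouse sums. In the paired comparison of plexus level with the rest they made up 13.8%, so paired results near the threshold are less certain. That comparison recovered 54% of genes changed by 1 on the log2 scale and 2% of those changed by 0.5. By age, 17% of genes with a slope of 0.05 log2 units per month and 83% at 0.15 were recovered in the choroid plexus. In mouse sums 2% were recovered at a slope of 0.03 and 98% at 0.1, so a small slope that did not pass is not evidence of no change. Intervals and limits from 0 reads cover counting error only: the libraries have no molecular identifiers, and 3 counts were taken as the limit. Alternatives were DESeq2 1.42.0, other filters and scaling, covariates for depth, blood and plexus genes, subsets of mice, and leaving out 12 mice in turn, 1 per age and sex. Figures used matplotlib 3.10.9.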

Additional observations from a re-analysis of the deposited data

Results flagged for a closer look

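In groups of 4 to 6 mice of 1 sex and age, 66 checks were made for a mouse apart from its group. They covered the sum of the 8 genes, Trbc2 and Trac, each in mouse sums and choroid plexus, so they share mice. In 3 checks a mouse stood apart, where chance gives about 5 percent of checks. Mouse 37, a female of 3 months, had a sum of the 8 genes of 1.34 CPM in its mouse sum, beside 0.777 CPM in the next of 5 females. The choroid plexus of mouse 15, a male of 12 months, had a sum of 0 CPM, with the nearest of 4 at 0.848 CPM. Trbc2 in the choroid plexus of mouse 18, a male of 15 months, was 1.79 CPM, with the nearest of 5 at 0.712 CPM.

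In 3 of 150 pairs of gene and region the age slope differed from that of the rest of the same brains by edgeR's paired test of the difference. Over all genes and regions 0.473% of tests were steeper and 0.546% less steep. Cd3e was steeper by 0.061 log2 units per month in the cerebellum (adjusted p = 0.0430) and by 0.105 in the corpus callosum (adjusted p = 0.0192). Ccl5 in the olfactory bulb differed by -0.072 (adjusted p = 0.00344). None of the 3 passed in edgeR without the mouse as block (adjusted p = 0.170, 0.0979 and 0.173).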

How the results depend on the processing

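The 7 genes that rose in the mouse sums passed under all settings tried. Beside the 49 pairs that rose by region, 15 rose with edgeR's filterByExpr, which leaves fewer pairs of gene and region to test. In mice numbered 16 to 56 alone, which lack 12, 26 and 28 months, 31 rose. Leaving out 12 mice in turn gave 47 to 50. Among pairs that could still be tested, 7 of the 49 calls were lost with DESeq2 and 14 in males alone. From 3 to 21 months alone 17 were lost, and without the 28-month mice 12 were. Against 3 months, mice with all 14 regions gave 2 genes at 15, 4 at 18 and 0 at 26 months, and males alone 2, 3, 4 and 4 at 15, 18, 21 and 26 months, both with fewer mice. With filterByExpr 1 gene differed in level between the sexes in mouse sums, and 35 pairs were lower in a region than in the rest. Without the replicate block 0 pairs differed in slope and 32 were higher and 48 lower in a region. The slope of Trbc2 in mouse sums turned to -0.0038 in mice with all 14 regions, and that of Trac to -0.00072 without mouse 57, which has the highest sum of 8, with a range of -0.0011 (without mouse 17) to 0.0017 (without mouse 16) when 12 mice were left out in turn; none passed the threshold. The cause was not tested for the other changes. Depth limits Gzmb, Cd3d and both CD8 genes most: a library of 2e+06 reads at 3 months would hold a read of each in 1.30% to 5.00% of cases.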
